A study of Mus musculus with 28 samples.

Results

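The genes described here are the cytokine receptors and the receptors of the tumour necrosis factor (TNF) superfamily in mouse lung adenocarcinoma cells, read through acetylated histone H3. The members were chosen by symbol alone, as the protein-coding genes of the mm10 RefSeq table whose symbols start with Tnfrsf, Ifnar or Ifngr, or with Il, a number and r. The rule took 65 of 21887 protein-coding genes. It also takes Il1rn, which codes for a secreted receptor antagonist and not for a receptor. Chromatin immunoprecipitation and sequencing was run on cultured cells with antibodies to H3 acetylated at lysine 27 (H3K27ac) and at lysine 9 (H3K9ac), with 3 biological replicates per mark in each of 4 groups. Sen cells are labelled sensitive to PD-1 and wild-type in genotype. Res cells are labelled resistant and wild-type, and their immunoprecipitated libraries are described as coming from cells that received PD-1 inhibitors. Res_Ctrl cells are resistant cells of the genotype Control, with library names that begin with NTCtrl, and Res_shFabp7 cells are resistant cells with a knockdown of Fabp7, a fatty acid binding protein. All 4 groups share the lung adenocarcinoma origin, and the last 3 share the resistant label. The labels name neither a clone nor a hairpin sequence, so each group stands for the line it is called after, and p-values measure the spread between these replicates.

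Cytokine receptors are cell-surface proteins that carry a signal from a secreted cytokine into the cell. Receptors of interferons and of most interleukins work as dimers that bind Janus kinases (JAK) and activate STAT transcription factors, whereas receptors of the IL-1 and IL-17 families and of TNF use adaptor proteins that lead to NF-kB and MAP kinases. In tumour cells, interferon gamma raises antigen presentation, and receptors of the TNF family can either promote survival or start cell death. H3K27ac and H3K9ac lie over active promoters, and H3K27ac also over active enhancers.

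The unit of measurement was a merged region, that is, the stretch covered by overlapping peaks of the 12 lists of a mark. A gene was given the regions within 1 kb of its annotated ends. The level of a region is its tag count in counts per 1000000 tags in peaks (CPM), scaled by TMM, an edgeR method that lines up libraries on the bulk of their regions, over the regions with a peak in all 12 libraries. A library without a peak in a region has no deposited count there, so it has no level, and the smallest peaks set what can be seen: the 5th percentile of peak levels lay between 8.73 and 21.4 CPM in the H3K27ac libraries and between 12.3 and 28.8 CPM in the H3K9ac libraries. With M for 1000000, tags in peaks numbered 2.24 to 10.5 M per H3K27ac library and 2.57 to 11.5 M per H3K9ac library. Total reads per library were not used here. Sen replicate 1 of H3K27ac stood apart, with 2.24 M tags and 15856 peaks against 5.91 and 5.30 M tags in the other Sen replicates. A lower level can come from fewer cells that carry the mark, from less mark per cell or from fewer copies of the locus, and these cannot be told apart here.

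The label of the cells was checked against marker genes. Of 13 epithelial and lung markers, Cdh1, Krt7, Krt8, Krt18, Krt19 and Sftpc had a peak in all 12 libraries of both marks, whereas Cldn4, Cldn7, Nkx2-1, Sftpd and Napsa had none. Their summed H3K9ac level was 1640 to 1660 CPM in Sen, 1140 to 1250 in Res, 1560 to 1660 in Res_Ctrl and 1390 to 1550 in Res_shFabp7. Of 16 leukocyte markers, 13 had no peak in any library, among them Ptprc, Cd3e and Itgam. Cd14 and Cd68 had a peak in all 12 libraries of both marks, and Spi1 in 8 H3K27ac and 10 H3K9ac libraries. The summed level of the list lay between 186 and 250 CPM for H3K27ac and between 237 and 285 CPM for H3K9ac. Of 6 fibroblast markers, 4 had no peak. Of 5 endothelial markers, 3 had no peak. Cdh5 had a peak in 11 H3K27ac and 5 H3K9ac libraries, and Vwf in 10 and 5. The summed H3K27ac level of the endothelial list was 0 to 175 CPM in Sen, 39.1 to 60.9 in Res, 313 to 352 in Res_Ctrl and 266 to 310 in Res_shFabp7. In H3K27ac the summed epithelial levels of the groups overlapped or met, at 2250 to 2580 CPM in Sen, 2110 to 2250 in Res, 1590 to 2720 in Res_Ctrl and 2110 to 2340 in Res_shFabp7. The epithelial level in H3K9ac and the endothelial level in H3K27ac thus moved with groups compared below, and their part in the results on the receptors was not tested.

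Of the 65 members, 26 had no peak of either mark in any of the 24 libraries. Many of them are known for their work in lymphocytes or myeloid cells. Among interleukin receptors these were Il10ra, Il11ra2, Il12rb2, Il13ra1, Il13ra2, Il17rb, Il1r2, Il1rapl1, Il20ra, Il20rb, Il21r, Il22ra2, Il23r, Il27ra, Il2ra, Il2rg, Il31ra and Il7r, and in the TNF family they were Tnfrsf13b, Tnfrsf13c, Tnfrsf14, Tnfrsf17, Tnfrsf18, Tnfrsf19, Tnfrsf25 and Tnfrsf4. The common gamma chain Il2rg, which IL-2, IL-7, IL-15 and IL-21 receptors share, was therefore without a peak, and so was Il13ra1, the partner of Il4ra in the receptor of epithelial cells for IL-4 and IL-13. Il11ra2 has a near-identical copy, and how reads that fit several copies were treated is not given in the sources used here. Of the other 39 members, 34 had peaks of both marks, 5 had H3K27ac peaks only and 0 had H3K9ac peaks only. Those 5 were Il12rb1, Il18r1, Il1rapl2, Il1rl2 and Il2rb. A region with a peak in all 12 libraries of both marks was found at 18 members.

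The share of members with a region in 3 of 3 libraries was below the share of all protein-coding genes in each of the 8 combinations of mark and group. For H3K27ac it was 24 members (36.9%, against 47.2% of all genes) in Sen, 27 (41.5%, against 49.7%) in Res, 25 (38.5%, against 49.2%) in Res_Ctrl and 34 (52.3%, against 53.9%) in Res_shFabp7. For H3K9ac it was 27 (41.5%, against 52.0%) in Sen, 24 (36.9%, against 49.3%) in Res, 25 (38.5%, against 47.5%) in Res_Ctrl and 28 (43.1%, against 52.8%) in Res_shFabp7. Res_shFabp7 had the most members with the mark, and it also had the most peaks called: 23131, 27107 and 28934 H3K27ac peaks per library, against 19965 to 22982 in Res_Ctrl.

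**Figure D1:**
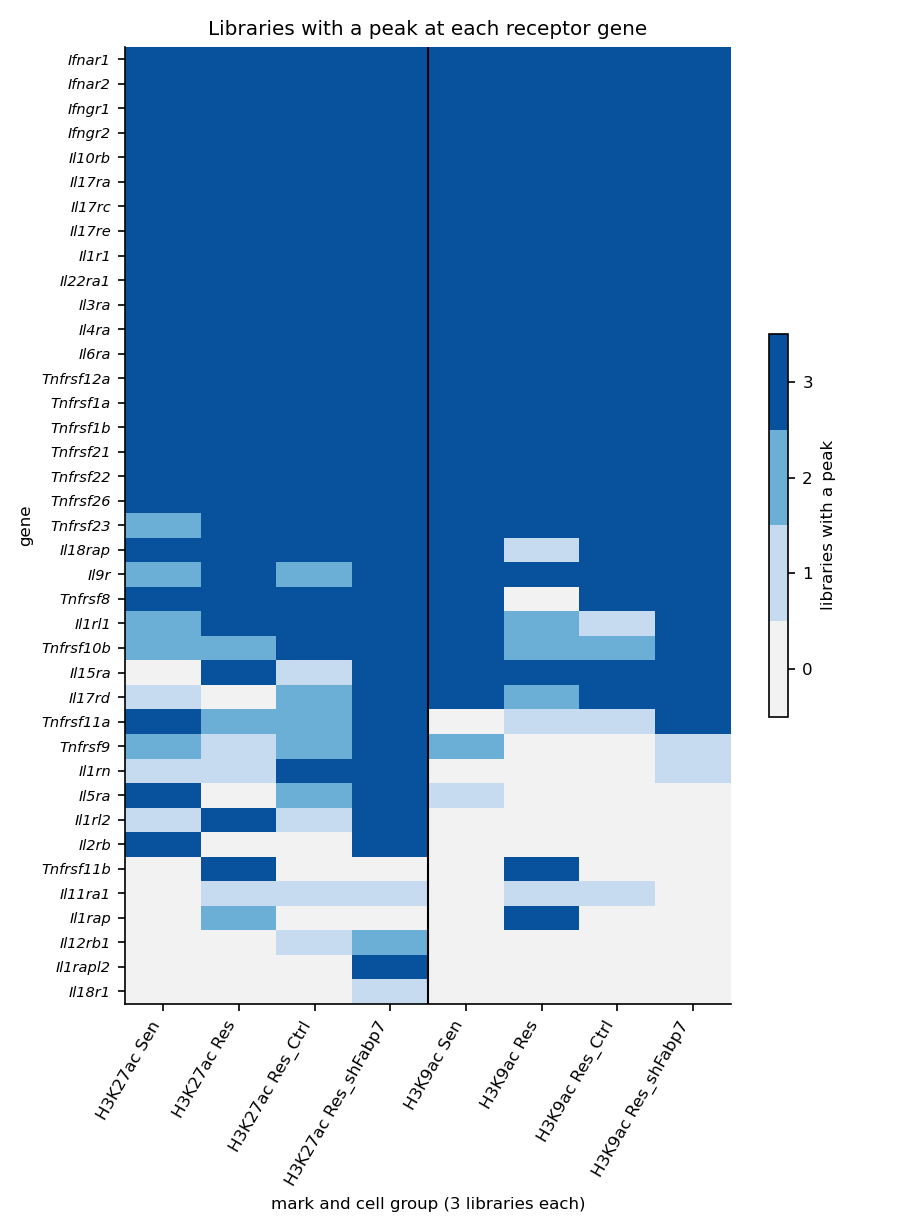
Number of libraries with a peak (0 to 3, by shade) at each of the 39 members with any peak, for the 4 groups and 2 marks. The block of genes with a peak in all libraries holds the interferon receptors, and single dark cells stand for receptors marked in 1 group, such as Tnfrsf11b in Res.

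Promoter sequences were looked up for the members in the RefSeq promoter table (GRCm38.p6), which held 54 of the 65. The 20 matched promoters of members with a region in all 12 libraries of at least 1 mark had a median CpG ratio, observed over expected, of 0.57 and a median GC content of 59.0%, close to the medians of all genes (0.56 and 56.3%). The 23 matched promoters of members without a peak had medians of 0.35 and 52.0%, and the 11 of members with peaks in fewer libraries had 0.29 and 51.0%. The median CpG ratio was thus lower in members without a peak than in members with a region in all 12 libraries of at least 1 mark. The ranges overlapped widely, at 0.05 to 0.823 against 0.144 to 0.935, and the difference was not tested. The promoters of 5 receptors on which the results below turn are printed here, as the 250 bases before the start listed in that table, so that the acetylated sequence can be seen. For Il1rap the listed start lies within the annotated gene, so most of the stretch printed does as well. Capitals mark the SP1 box, GGGCGG or its complement CCGCCC,, searched on both strands. The first receptor binds IL-22, the next is a subunit of the IL-18 receptor, the next pair form the receptor of interferon gamma, and the last is the subunit that IL-1, IL-33 and IL-36 receptors share.
Il22ra1 (chr4:135727909-135728158, + strand): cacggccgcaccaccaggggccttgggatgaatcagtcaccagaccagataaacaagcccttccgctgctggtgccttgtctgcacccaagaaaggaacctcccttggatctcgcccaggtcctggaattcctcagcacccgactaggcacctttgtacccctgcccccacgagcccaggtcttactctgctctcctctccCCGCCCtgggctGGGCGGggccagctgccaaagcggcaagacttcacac
Il18rap (chr1:40515112-40515361, + strand): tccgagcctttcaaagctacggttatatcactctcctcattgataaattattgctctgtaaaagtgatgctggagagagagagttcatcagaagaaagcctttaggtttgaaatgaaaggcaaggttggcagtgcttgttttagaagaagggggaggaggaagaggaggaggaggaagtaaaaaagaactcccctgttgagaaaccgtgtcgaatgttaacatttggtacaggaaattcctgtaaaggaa
Ifngr1 (chr10:19591699-19591948, + strand): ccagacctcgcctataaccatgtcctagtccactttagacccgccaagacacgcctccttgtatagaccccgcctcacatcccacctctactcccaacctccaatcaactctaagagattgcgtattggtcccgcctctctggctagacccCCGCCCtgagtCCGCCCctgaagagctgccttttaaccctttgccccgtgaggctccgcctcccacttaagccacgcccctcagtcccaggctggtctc
Ifngr2 (chr16:91546809-91547058, + strand): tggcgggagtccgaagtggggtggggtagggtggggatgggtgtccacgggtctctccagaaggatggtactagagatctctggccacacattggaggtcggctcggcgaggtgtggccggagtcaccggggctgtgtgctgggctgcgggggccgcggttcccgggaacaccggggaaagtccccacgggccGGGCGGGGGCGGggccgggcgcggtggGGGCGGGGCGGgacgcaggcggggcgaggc
Il1rap (chr16:26581455-26581704, + strand): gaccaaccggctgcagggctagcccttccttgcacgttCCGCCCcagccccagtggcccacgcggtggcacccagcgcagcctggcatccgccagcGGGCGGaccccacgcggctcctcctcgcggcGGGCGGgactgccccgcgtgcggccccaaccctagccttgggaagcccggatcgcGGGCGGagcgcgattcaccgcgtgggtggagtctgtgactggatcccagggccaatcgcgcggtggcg

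The promoter of Ifngr2 held 4 SP1 boxes, 1 pair of them overlapping, and the NF-kB motif (not in capitals), which 0.146% of the 21263 promoters in the table held and which no other matched member had. Il1rap had 4 SP1 boxes, Il22ra1 and Ifngr1 had 2 each, and Il18rap had none, where 42.6% of all promoters held at least 1. Over the 54 matched members, 26 held an SP1 box. The other motifs searched, the ETS core, CRE, AP-1, STAT and ISRE, were found in none of the 5. These matches describe letters and not bound factors.

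A region was tested where all 6 libraries of a comparison had a peak, and a gene took its tested region with the highest mean level. The threshold was an adjusted p of 0.05 by edgeR's quasi-likelihood test over all regions tested. A change is given on the log2 scale, as the first group named over the second, with its standard error (SE). The comparison of Res with Sen asks what differs with resistance, but the PD-1 inhibitors named for Res and not for Sen or Res_Ctrl differ with it, and resistance and treatment cannot be told apart there. Of 21 members tested in H3K27ac, 2 rose and 1 fell, or 14.3%, against 27% of all tested genes (15.1% higher and 11.9% lower). In H3K9ac, 6 of 22 rose and 5 fell, or 50.0% of the members against 53.4% of all genes (27.7% higher and 25.7% lower). The median change of the tested members was 0.01 in H3K27ac and 0.03 in H3K9ac, beside medians of -0.03 and -0.02 over all genes. These shares lie near or under the background and are no result about the receptors as a group.

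The comparison of Res_shFabp7 with Res_Ctrl asks what differs with less Fabp7. Here 1 of 25 tested members fell and 0 rose in each mark, against 2.32% of all genes called in H3K27ac (1.08% higher and 1.23% lower) and 6.14% in H3K9ac (2.34% higher and 3.8% lower). At an unadjusted p under 0.05, edgeR gave 1 member higher and 2 lower in H3K27ac, and 1 higher and 6 lower in H3K9ac. DESeq2, a further count test, called 1 higher and 1 lower in H3K27ac and 0 higher and 2 lower in H3K9ac. With the replicate number as a block, Il18rap was called too in H3K27ac, at a log2 change of 0.48 (adjusted p = 0.019), so that 2 members were called. The member medians were -0.05 and -0.06, beside 0.03 and 0.01 over all genes.

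Res_Ctrl and Res carry the same resistant label but differed at many regions, so that both were also set against Sen and against each other. Between Res_Ctrl and Sen, 3 of 20 members rose and 0 fell in H3K27ac, against 13.9% of all genes called, and 7 of 25 rose and 0 fell in H3K9ac, against 31.1%. These 10 calls were of 7 genes, as Il4ra, Il6ra and Il18rap counted in both marks, and 2 of the calls, Il6ra and Il18rap in H3K9ac, held under all alternatives that could be run. All were higher in Res_Ctrl, where all genes split into 7.36% higher and 6.54% lower in H3K27ac and 15.6% each way in H3K9ac. At an unadjusted p under 0.05, 6 members were higher and 0 lower in H3K27ac, and 9 were higher and 0 lower in H3K9ac. DESeq2 called 5 and 7 higher and 0 lower. Between Res_Ctrl and Res, 3 of 23 members rose and 3 fell in H3K27ac, against 31.5% of all genes called, and 6 of 22 rose and 3 fell in H3K9ac, against 41.5%. With the replicate block, 5 rose and 4 fell in this H3K27ac comparison, and the calls added were Il1r1 (0.31, adjusted p = 0.021), Il6ra (0.31, adjusted p = 0.027) and Tnfrsf12a (-0.16, adjusted p = 0.040). The comparisons of Res with Sen and of Res_Ctrl with Res share the Res libraries, and those of Res_Ctrl with Sen and of Res_shFabp7 with Res_Ctrl share the Res_Ctrl libraries, so their values are set side by side and not counted as separate evidence.

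**Figure D2:**
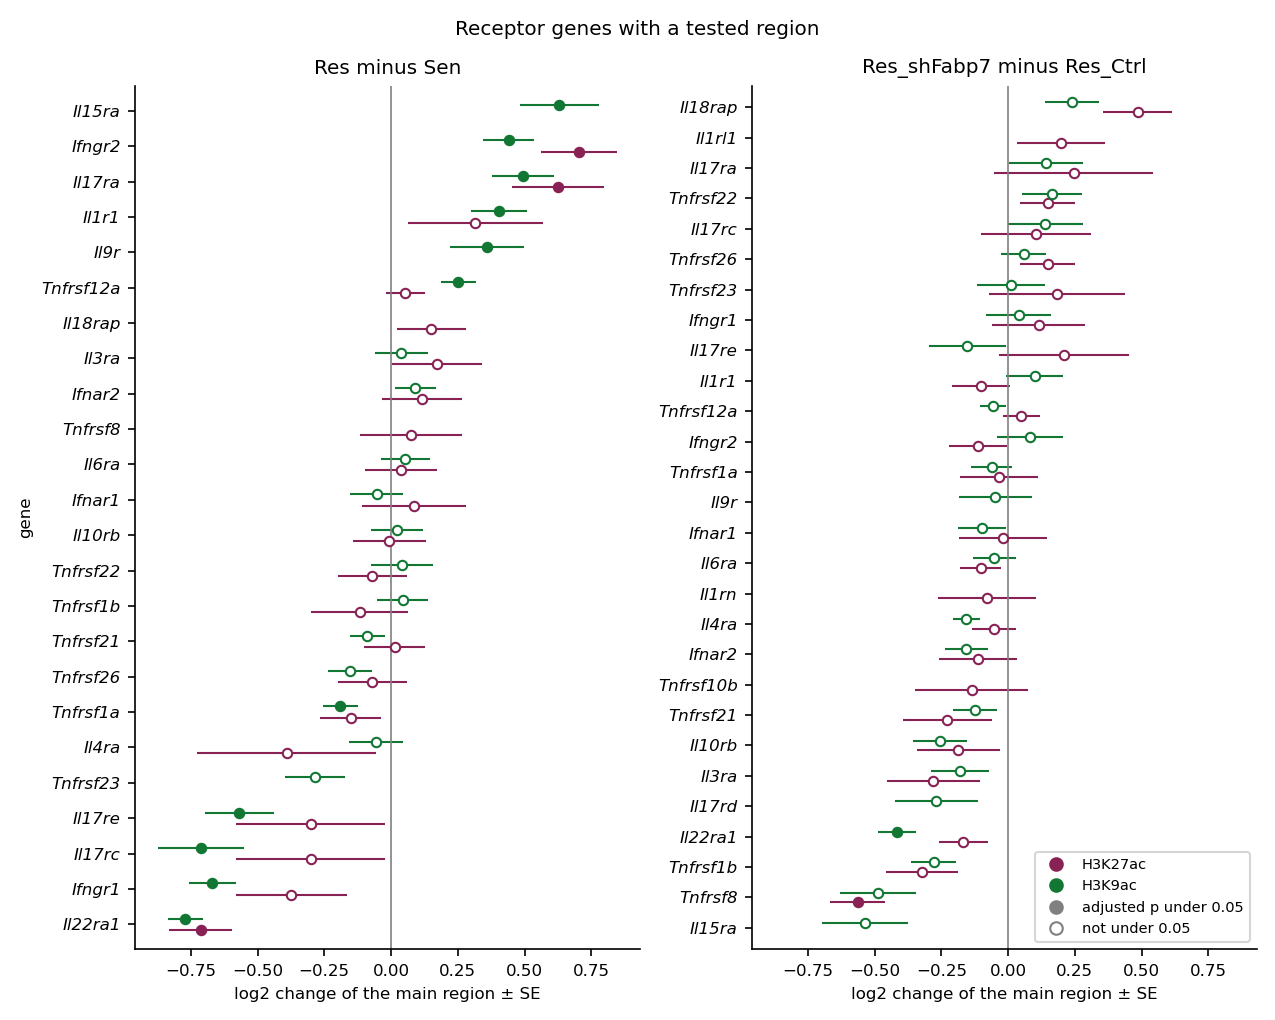
Log2 change with its standard error at the tested region of each member, for Res against Sen and for Res_shFabp7 against Res_Ctrl in both marks; filled points passed an adjusted p of 0.05. Between Res and Sen the points reach from -0.77 at Il22ra1 to 0.70 at Ifngr2, and between the other 2 groups only Il22ra1 in H3K9ac and Tnfrsf8 in H3K27ac are filled.

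Regions that were on in 1 group (a peak in 3 of 3 libraries) and off in the other (0 of 3) have no p-value each. In H3K27ac, 2 members gained such a region in Res over Sen (6.04% of all genes with a peak in either group) and 3 lost 1 (3.86%). In H3K9ac, 2 members gained a region (2.32%) and 5 lost 1 (9.37%). Res_shFabp7 gained a region over Res_Ctrl at 5 members in H3K27ac (5.41%) and at 1 in H3K9ac (4.31%) and lost 0 (0.158% and 0.0331%). The H3K27ac gains were at Il1r1, Il1rapl2, Il2rb, Tnfrsf21 and Tnfrsf22, and the H3K9ac gain was at Il17re. When each library was limited to the same number of top peaks, 1 of these 5 gains was left, at Il2rb, and the other 4 were not found. The H3K9ac gain at Il17re was not found then either. Of the H3K9ac losses in Res against Sen, those at Ifngr2, Il1r1, Tnfrsf1a and Tnfrsf8 were not found under this limit. The loss at Il22ra1 was, beside losses at Il17rc, Il17re and Tnfrsf10b. Between Res_Ctrl and Sen, 1 member gained and 1 lost a region in H3K27ac (2.67% and 1.19%), and 0 gained and 4 lost 1 in H3K9ac (0.549% and 4.44%). Between Res_Ctrl and Res, 1 gained and 1 lost a region in H3K27ac (5.68% and 5.02%), and 1 gained and 2 lost 1 in H3K9ac (2.01% and 1.78%).

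The receptors of type I interferons passed the test in no comparison, whereas the 2 chains of the interferon gamma receptor moved in opposite directions in Res against Sen in H3K9ac, and Il22ra1 had its lowest level in Res. Ifnar1 and Ifnar2, the 2 chains for type I interferons, had start-site peaks in all 24 libraries and passed the test in none of the 8 comparisons by mark. Ifnar1 ranged from 31.9 to 53.5 CPM in H3K27ac and from 51.5 to 77.8 CPM in H3K9ac over all 12 libraries. Il10rb, the shared subunit of the receptors for IL-10, IL-22 and type III interferons, lies beside Ifnar2 and passed in none. Its region also lies within the window of Ifnar2.

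Ifngr1 codes for the chain that binds interferon gamma. Its start-site region in H3K9ac (chr10:19590776-19594221) had 68.7, 70.4 and 74.8 CPM in Sen, 40.7, 46.2 and 48.6 in Res, 57.7, 63.3 and 72.6 in Res_Ctrl, and 75.4, 69.8 and 55.2 in Res_shFabp7. Every Res library was below every library of the other groups. Ifngr1 fell by 0.67 (SE 0.089) on the log2 scale in Res against Sen (adjusted p = 8.6e-05), and Res_Ctrl was higher than Res by 0.52 (adjusted p = 0.0052). The stretch called as a peak was shorter in Res too, 1499 to 1659 bases against 2388 to 3317 in Sen, and per called base the change was 0.06 against Sen (adjusted p = 0.62) and -0.07 for Res_Ctrl against Res (adjusted p = 0.59). The call for Res_Ctrl against Res was lost with chromosome medians removed too (0.35, adjusted p = 0.055). In H3K27ac the values overlapped, with 37.2, 69.3 and 50.1 CPM in Sen and 43.6, 39.1 and 41.4 in Res, and the change of -0.37 did not pass (adjusted p = 0.20).

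Ifngr2 codes for the chain that completes the receptor and carries the signal. Its start-site region in H3K27ac (chr16:91545936-91554589) had 81.5, 111 and 80.4 CPM in Sen, 141, 162 and 148 in Res, 87.6, 98.8 and 112 in Res_Ctrl, and 88.9, 90.5 and 92.9 in Res_shFabp7. Res stood above all other libraries. Ifngr2 rose by 0.70 (SE 0.14) in Res against Sen (adjusted p = 0.0068), and Res_Ctrl was lower than Res, at -0.58 (adjusted p = 0.0027). The called stretch widened with the level, and per called base the change was -0.01 against Sen (adjusted p = 0.92) and -0.09 for Res_Ctrl against Res (adjusted p = 0.40). In H3K9ac (chr16:91546186-91549781) the levels were 57.1, 66.1 and 67.0 CPM in Sen, 79.3, 83.8 and 99.2 in Res, 53.1, 79.3 and 69.0 in Res_Ctrl, and 79.3, 70.1 and 65.1 in Res_shFabp7. Here too Res exceeded Sen in every library, by 0.44 (SE 0.095, adjusted p = 0.0023), but 1 library each of the other 2 groups reached the lowest Res value. Per called base this change was 0.10 (adjusted p = 0.39). Res_Ctrl was lower than Res by this mark too, at -0.37 (adjusted p = 0.044), a call lost per called base (0.20, adjusted p = 0.079), by DESeq2 and without Res replicate 2 or 3 or Res_Ctrl replicate 1 or 3. A neighbouring H3K9ac region within the gene (chr16:91550507-91552533) had 13.5, 24.6 and 20.1 CPM in Sen and no peak in any Res or Res_Ctrl library. In Res_shFabp7 it had called stretches of 1695 and 1191 bases in replicates 2 and 3. The Sen levels are near those of the smallest peaks, and the loss was not found with equal numbers of peaks per library. A further H3K27ac region (chr16:91555052-91558945) had no peak in Sen and 66.8, 45.5 and 74.0 CPM in Res_Ctrl. It also had a peak in Res replicates 1 and 2 and in every Res_shFabp7 library.

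Il22ra1, the chain that binds IL-22, a cytokine that acts on epithelia, had the largest H3K9ac change of a tested member in any comparison. Its start-site region (chr4:135726141-135731161) had 142, 133 and 137 CPM in Sen, 84.3, 82.8 and 75.5 in Res, 173, 166 and 165 in Res_Ctrl, and 135, 130 and 111 in Res_shFabp7. Res was lowest and Res_Ctrl highest, with no overlap between either and any other group. The gene fell by 0.77 (SE 0.066) in Res against Sen, a 1.71-fold difference (adjusted p = 2.8e-06). Res_Ctrl was higher than Res by 1.06 (SE 0.074, adjusted p = 1e-06) and higher than Sen by 0.29 (adjusted p = 0.0021), a call lost per called base (0.10) and with chromosome medians removed (0.15, adjusted p = 0.093), where chromosome 4 had a median of 0.14. Knockdown went with a fall of 0.42 (SE 0.071) in Res_shFabp7 against Res_Ctrl (adjusted p = 0.0039), the only H3K9ac call among the members in that comparison. With the medians of 5 Mb windows removed the change was -0.26 and did not pass (adjusted p = 0.065), and the median change of the window around the gene was -0.16.

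In H3K27ac the start-site region of Il22ra1 (chr4:135725016-135733410) had 120, 145 and 156 CPM in Sen, 87.2, 88.3 and 85.6 in Res, 151, 150 and 171 in Res_Ctrl, and 129, 139 and 147 in Res_shFabp7. Res was again below all other libraries, by 0.71 (SE 0.12) against Sen (adjusted p = 0.0025), and Res_Ctrl was higher than Res by 0.87 (adjusted p = 9.4e-05). Per called base these changes were -0.18 (adjusted p = 0.093) and 0.14 (adjusted p = 0.18), and neither call held. Res_shFabp7 and Res_Ctrl differed by -0.17 in this mark (adjusted p = 0.35). A region further within the gene (chr4:135742403-135746945) had 73.6, 90.1 and 80.1 CPM in Sen and 12.1 and 37.7 CPM with 1 library without a peak in Res. Its H3K9ac counterpart was present in Sen alone at 3 of 3 libraries (39.8, 41.7 and 38.5 CPM), with no peak in Res or Res_Ctrl and 26.6 and 14.9 CPM in 2 libraries of Res_shFabp7.

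**Figure D3:**
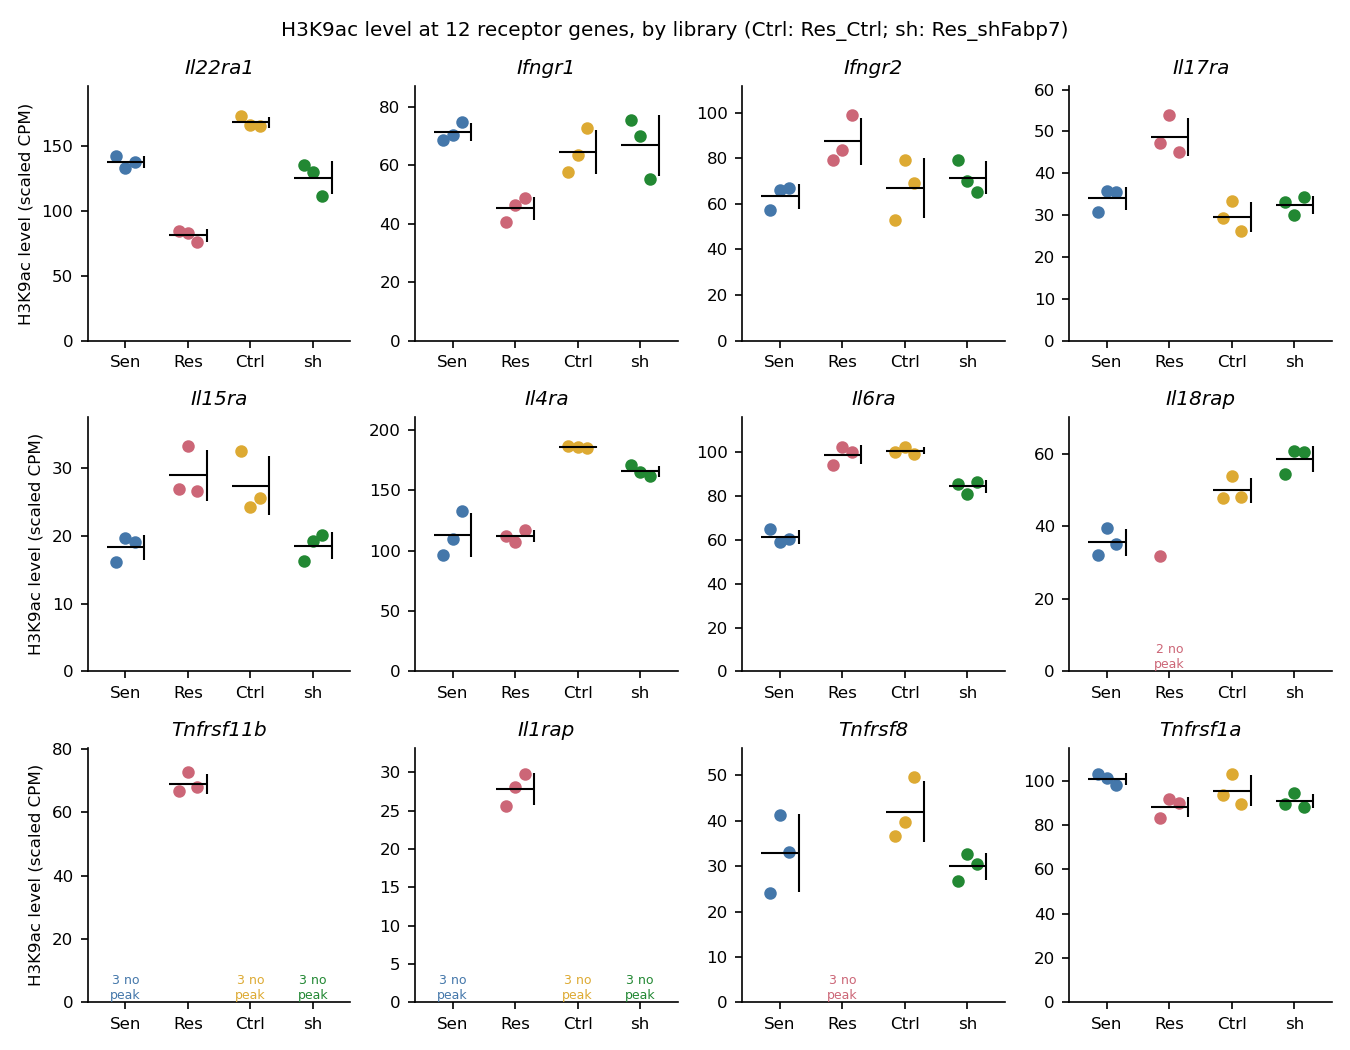
H3K9ac level (CPM, linear axes from 0) in each library at 12 receptor genes, with the mean of each group as a line and its SD as a bar; libraries without a peak are counted below, and Il6ra is shown at its start-site region. Il22ra1 and Ifngr1 are lowest in Res, Ifngr2 and Il17ra are highest there, and Tnfrsf11b and Il1rap have values in Res only.

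Il6ra and Il4ra, the receptors of IL-6 and IL-4, both carried more of each mark in Res_Ctrl than in Sen, and the start of Il6ra was higher in Res as well. Il6ra codes for the chain that binds IL-6 and hands it to the shared subunit gp130, the product of Il6st. It had 2 regions with a peak in all 12 libraries of each mark, and the tested one lay within the gene, except for Res_Ctrl against Res in H3K9ac, where it was the start-site region (0.03, adjusted p = 0.81). The region within the gene in H3K9ac (chr3:89894728-89898712) had 84.4, 76.2 and 78.0 CPM in Sen, 82.9, 72.1 and 92.6 in Res, 103, 111 and 106 in Res_Ctrl, and 101, 111 and 92.9 in Res_shFabp7. Res_Ctrl lay above all Sen and Res libraries, at 0.42 over Sen (adjusted p = 0.00073). Res and Sen overlapped (0.05, adjusted p = 0.63), and Res_Ctrl was higher than Res at this region by 0.37 (SE 0.099, adjusted p = 0.010). In H3K27ac the Res_Ctrl level of this region was higher than in Sen by 0.35 (adjusted p = 0.044). That H3K27ac call was lost when any Res_Ctrl replicate, Sen replicate 2 or Sen replicate 3 was left out (adjusted p of 0.077 to 0.13), and with chromosome medians removed.

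The start-site region of Il6ra, which was singled out after its values had been seen, behaved differently from the region within the gene. In H3K27ac (chr3:89910327-89914445) it had 47.0, 58.4 and 58.2 CPM in Sen, 93.0, 94.2 and 105 in Res, 92.4, 87.2 and 91.1 in Res_Ctrl, and 69.9, 68.9 and 70.5 in Res_shFabp7. In H3K9ac (chr3:89911086-89914316) it had 64.9, 58.7 and 60.4 CPM in Sen, 93.7, 102 and 100 in Res, 100, 102 and 98.9 in Res_Ctrl, and 85.4, 80.9 and 86.3 in Res_shFabp7. In both marks Sen was lowest and Res_shFabp7 lay between Sen and the other groups. Res and Res_Ctrl overlapped in H3K9ac, whereas in H3K27ac every Res library was above every Res_Ctrl library, a difference that did not pass (-0.09, adjusted p = 0.53). Against Sen the region rose in Res by 0.81 (SE 0.13, adjusted p = 0.0019) in H3K27ac and by 0.69 (SE 0.073, adjusted p = 1.6e-05) in H3K9ac. Against Sen it rose in Res_Ctrl by 0.74 (adjusted p = 0.0049) and 0.71 (adjusted p = 2.6e-05). These 4 calls held under all 16 alternative settings tried for each. Res_shFabp7 against Res_Ctrl gave -0.36 (SE 0.10, adjusted p = 0.078) in H3K27ac and -0.25 (SE 0.071, adjusted p = 0.051) in H3K9ac, and with the replicate block the H3K27ac value was -0.35 (adjusted p = 0.045).

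Il4ra, the chain shared by the IL-4 and IL-13 receptors, had its highest levels in Res_Ctrl and Res_shFabp7. Its start-site region in H3K9ac (chr7:125551045-125557250) had 96.6, 110 and 133 CPM in Sen, 112, 107 and 117 in Res, 187, 186 and 185 in Res_Ctrl, and 171, 165 and 162 in Res_shFabp7. Res_Ctrl exceeded all Sen and Res libraries, by 0.68 (SE 0.094, adjusted p = 0.00017) over Sen and by 0.74 (SE 0.065, adjusted p = 5.5e-06) over Res. The called stretch was longer there as well, and per called base the change was 0.19 over Sen (adjusted p = 0.092) and -0.003 over Res (adjusted p = 0.98). In H3K27ac Res_Ctrl was higher than Sen by 0.51 (adjusted p = 0.046) and higher than Res by 0.87 (SE 0.29, adjusted p = 0.037), where Res replicate 3 had 69.8 CPM over 2732 called bases and the other Res replicates had 174 and 206 CPM over 10234 and 10983. Both H3K27ac calls were lost when any Res_Ctrl replicate was left out, and the call over Sen also without Sen replicate 3. Both were lost per called base (0.10 and 0.14) and with chromosome medians removed as well. A region downstream in the gene (chr7:125579636-125582142), singled out after its values had been seen, had 52.2, 45.9 and 45.6 CPM of H3K9ac in Sen and 28.5, 28 and 27.5 in Res. It fell by 0.78 (SE 0.12, adjusted p = 0.00019) in Res against Sen, and per called base by 0.17 (adjusted p = 0.15).

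Il15ra, which binds IL-15 and presents it to neighbouring cells, carried a weak start-site region. In H3K9ac (chr2:11704929-11706753) it had 16.2, 19.7 and 19.1 CPM in Sen, 27, 33.3 and 26.6 in Res, 32.5, 24.3 and 25.6 in Res_Ctrl, and 16.3, 19.3 and 20.2 in Res_shFabp7. The resistant groups without the knockdown lay above all libraries of the other 2 groups. Il15ra rose by 0.63 (SE 0.15, adjusted p = 0.0039) in Res and by 0.54 (adjusted p = 0.018) in Res_Ctrl against Sen. The second call was lost without Sen replicate 3 (adjusted p = 0.053) or Res_Ctrl replicate 1 (adjusted p = 0.084). The change in Res_shFabp7 against Res_Ctrl was -0.54 and did not pass (SE 0.16, adjusted p = 0.063). In H3K27ac Il15ra had no peak in Sen, 25.8, 22.5 and 18.9 CPM in Res, 20.3 CPM in 1 Res_Ctrl library and 19.0, 9.73 and 10.5 CPM in Res_shFabp7.

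Il2rb, the beta chain of the IL-2 and IL-15 receptors, and Il5ra, the chain that binds IL-5, are known from lymphocytes and eosinophils, and both had H3K27ac in Sen that Res lacked. Il2rb (chr15:78478745-78484149) had 41.4, 59.3 and 67.9 CPM in Sen, no peak in Res or Res_Ctrl, and 38.7, 39.5 and 54.8 CPM in Res_shFabp7. It had no H3K9ac peak in any library. The Il5ra region (chr6:106728584-106733028) had 38.2, 74.5 and 78.2 CPM in Sen, no peak in Res, 19.1 and 39.9 CPM in 2 Res_Ctrl libraries, and 16.3, 37.2 and 42.7 CPM in Res_shFabp7. Neither region lay at a known start of its gene in the promoter table, which has no entry for Il2rb. Il3ra, a subunit of the IL-3 receptor, ranged from 34.1 to 56.1 CPM in H3K27ac and passed in none of the comparisons. The region given to Il9r holds the start of Snrnp25 and cannot be assigned to either gene. It rose by 0.36 in H3K9ac in Res against Sen (adjusted p = 0.044), where the median change of chromosome 11 was 0.35, and the call was lost without any Sen replicate or without Res replicate 1 or 3. Il11ra1 and Il12rb1 had H3K27ac peaks in 3 of 12 libraries each, at most 2 in a group, and were not tested.

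Il17ra, the signalling chain common to the IL-17 receptors, was more acetylated in Res than elsewhere, and the H3K9ac levels of Res_Ctrl and Sen overlapped. Its region in H3K9ac (chr6:120462731-120465111) had 30.8, 35.8 and 35.5 CPM in Sen, 47.2, 53.9 and 45.1 in Res, 29.2, 33.4 and 26.3 in Res_Ctrl, and 33.1, 30 and 34.3 in Res_shFabp7. All Res libraries were above all others. Il17ra rose by 0.49 (SE 0.12, adjusted p = 0.0042) in Res against Sen, and Res_Ctrl was lower than Res, at -0.72 (SE 0.14, adjusted p = 0.0017). In H3K27ac (chr6:120462725-120465073) it had 21.4, 23.9 and 20.5 CPM in Sen and 32.3, 30.1 and 40.9 in Res, a rise of 0.63 (SE 0.17, adjusted p = 0.025). This H3K27ac call was lost per called base (0.21, adjusted p = 0.15) and without Sen replicate 2, Sen replicate 3 or Res replicate 3. A neighbouring H3K27ac region (chr6:120468992-120473968) had 50.8, 66.5 and 87.9 CPM in Res and 37.7, 23.2 and 22.8 in Res_Ctrl, a difference of -1.26 (SE 0.25, adjusted p = 0.0029). The median change of the tested regions of chromosome 6 between Res and Sen was -0.36 in H3K27ac and -0.31 in H3K9ac, so Il17ra moved against its chromosome.

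Il17rc, the partner of Il17ra in the receptor of IL-17A and IL-17F, and Il17re, the receptor of IL-17C, are neighbours and share a region that holds the start of Il17rc. In H3K9ac this shared region (chr6:113470577-113472611) had 34.6, 32.9 and 32.1 CPM in Sen, 23.1, 20.3 and 24.0 in Res, 31.3, 29.9 and 33.5 in Res_Ctrl, and 30.2, 31.5 and 23.4 in Res_shFabp7. Res lay below Sen and Res_Ctrl in every library, with a fall of 0.57 (SE 0.13, adjusted p = 0.0032) against Sen. The tested region of Il17rc itself lies at the start of the neighbour Creld1 and cannot be given to Il17rc alone. It had 52.5, 52.5 and 47.6 CPM in Sen and 23.1, 40.3 and 29.5 in Res, a fall of 0.71 (SE 0.16, adjusted p = 0.0032). With the chromosome medians removed, the shared region changed by -0.26 (adjusted p = 0.14) and the other by -0.41 (adjusted p = 0.072), and per called base by -0.17 and -0.16, so neither call held. Res_Ctrl was higher than Res at these 2 regions, by 0.50 (adjusted p = 0.015) at Il17re and 0.60 (adjusted p = 0.032) at Il17rc. The first of these was lost by DESeq2 and without Res replicate 2 or Res_Ctrl replicate 3. The second was lost without Res replicate 1 or 3 or Res_Ctrl replicate 2 or 3, per called base and with chromosome medians removed. Il17rd, an inhibitor of growth factor signalling that also binds Il17ra, had start-site H3K9ac in 3 of 3 libraries of Sen, Res_Ctrl and Res_shFabp7 at 18.3 to 26.8 CPM and in 2 of 3 of Res.

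Chromosome 1 holds the genes Il1r2, Il1r1, Il1rl2, Il1rl1, Il18r1 and Il18rap side by side, which code for receptors of IL-1, IL-36, IL-33 and IL-18. Acetylation along the cluster was patchy. Il1r1, Il18rap and Il1rl1 carried both marks, and Il1rl2 carried H3K27ac only. The regions of Il1rl1 and Il1rl2 lay away from their listed starts. Il18r1 had an H3K27ac peak in 1 library, and Il1r2, the decoy receptor of IL-1, had no peak. Il18r1 is the chain that binds IL-18, and Il18rap is its signalling partner.

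**Figure D4:**
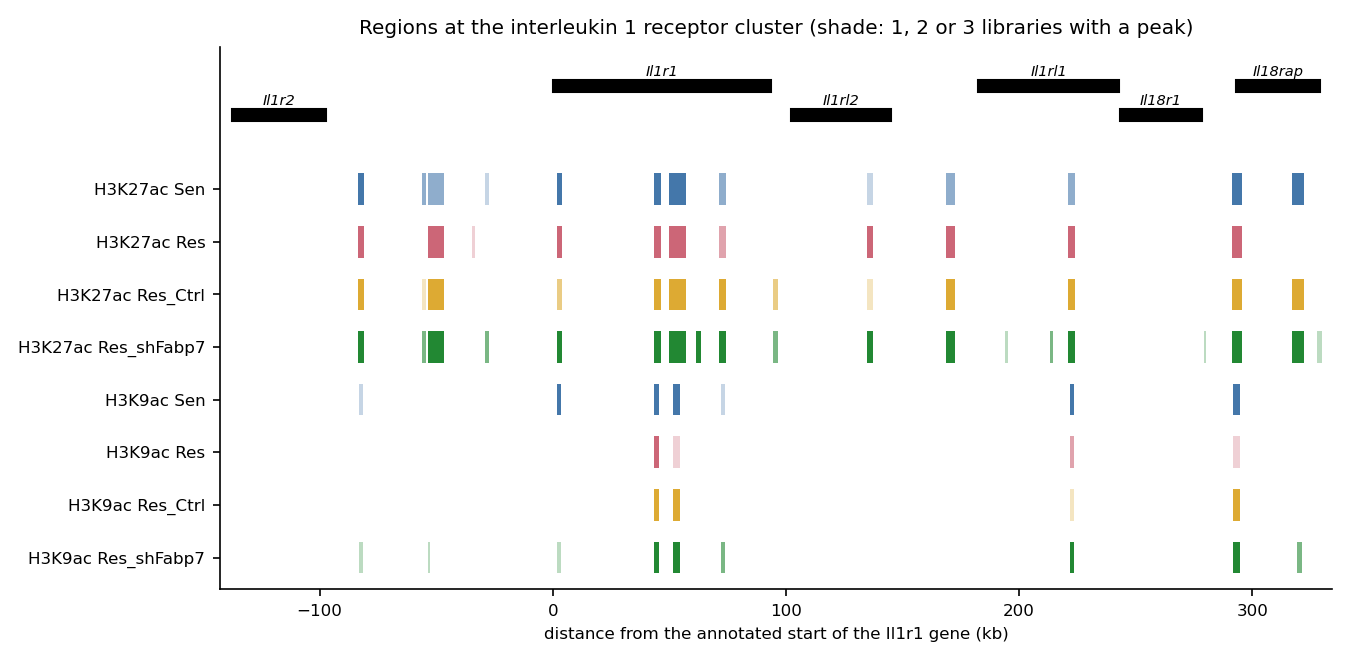
Map of the IL-1 receptor cluster, in kb from the start of Il1r1, with the merged regions of both marks in each group shaded by the number of libraries with a peak (1 to 3). The H3K27ac region 317.1 to 322.4 kb from that start, within Il18rap, is present in 3 of 3 libraries of Sen, Res_Ctrl and Res_shFabp7 and absent from Res, and no region lies over Il1r2.

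Il18rap had a region in every other group that Res lacked. Its start-site region in H3K9ac (chr1:40514263-40517095) had 32.2, 39.6 and 35.0 CPM in Sen, a peak in only 1 library of Res (31.7 CPM), 47.8, 53.9 and 48.1 in Res_Ctrl, and 54.3, 60.8 and 60.5 in Res_shFabp7. Res_Ctrl exceeded Sen in every library, by 0.47 (adjusted p = 0.0084). In H3K27ac the start site (chr1:40513896-40517834) had 51.7, 52.4 and 50.6 CPM in Sen, 51.5, 62.4 and 60.3 in Res, 74.3, 83.1 and 62.6 in Res_Ctrl, and 71.1, 72.7 and 75.7 in Res_shFabp7. Res_Ctrl was higher than Sen by 0.53 (adjusted p = 0.033), a call lost without Sen replicate 2 or 3 or Res_Ctrl replicate 1 or 2 and per called base (0.23, adjusted p = 0.057), and Res and Sen overlapped. The region within the gene (chr1:40539601-40544874) had 31.7, 46.8 and 52.3 CPM of H3K27ac in Sen, no peak in Res, 54.0, 66.6 and 66.6 CPM in Res_Ctrl, and 74.3, 94.7 and 89.0 CPM in Res_shFabp7. The loss of this region in Res was seen under all 5 other ways of calling presence. The change of this region in Res_shFabp7 against Res_Ctrl was 0.49 (SE 0.13, adjusted p = 0.064) without the replicate block.

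Il1r1, the signalling receptor of IL-1, had several regions that moved differently, among them 2 at listed starts of the gene. The start-site region further within the gene (chr1:40265663-40268911), singled out after its values had been seen, had 32.6, 29.0 and 39.3 CPM of H3K27ac in Sen, 62.0, 56.0 and 52.3 in Res, 42.2, 39.6 and 32.7 in Res_Ctrl, and 44.6, 57.8 and 44.2 in Res_shFabp7. Res exceeded Sen in every library, by 0.74 (SE 0.16, adjusted p = 0.0081), a call that held in 16 of 16 alternatives. Res_Ctrl was lower than Res, at -0.56 (adjusted p = 0.017), which held in 11 of 16. It was lost without Res replicate 1 or Res_Ctrl replicate 3, per called base (-0.19, adjusted p = 0.10) and with chromosome or 5 Mb window medians removed (-0.14 and -0.16), where chromosome 1 had a median of -0.42. The same start in H3K9ac (chr1:40265874-40268164) had 52.2, 49.0 and 49.8 CPM in Sen and 69.2, 56.7 and 74.6 in Res, a rise of 0.40 (SE 0.10, adjusted p = 0.0064). With chromosome medians removed this rise was 0.24 (adjusted p = 0.097). The region at the outer start, 1.9 to 3.6 kb into the gene, had H3K9ac of 12.7, 16.6 and 19.3 CPM in Sen and no peak in Res or Res_Ctrl. These levels are near those of the smallest peaks, and the loss was not found with equal numbers of peaks per library.

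Il1rl1, the receptor of IL-33, had 1 H3K27ac region in most libraries (chr1:40443541-40446568), with 35.0 and 22.2 CPM in 2 Sen libraries, 55.5, 60.2 and 56.9 CPM in Res, 31.0, 39.3 and 43.3 in Res_Ctrl, and 41.9, 44.9 and 41.9 in Res_shFabp7. Res was the highest group in H3K27ac, and Res_Ctrl was lower than Res, at -0.59 (adjusted p = 0.013), and at -0.17 with chromosome medians removed (adjusted p = 0.48). In H3K9ac Il1rl1 had a peak in 3 of 3 libraries of Sen and of Res_shFabp7, in 2 of Res and in 1 of Res_Ctrl. Il1rap, on chromosome 16, codes for the partner chain of the IL-1, IL-33 and IL-36 receptors. Its start-site H3K9ac region (chr16:26581246-26582695) had a peak only in Res, at 25.6, 28 and 29.8 CPM, and its H3K27ac region had 19.9 and 16.4 CPM in 2 Res libraries and no peak in any other group. The H3K9ac gain was also found with equal numbers of peaks per library, and it was not found with peaks of a score of 100 or more. Il1rapl2, a relative known from neurons, had H3K27ac only in Res_shFabp7, at 13.9, 45.4 and 42.3 CPM (chrX:138720985-138725194), and that gain was not found with equal numbers of peaks. Il1rn, the antagonist of IL-1, had H3K27ac of 32.9, 45.1 and 51.8 CPM in Res_Ctrl and 39.7, 44.3 and 37.3 in Res_shFabp7, with a peak in 1 library each of Sen and Res.

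In the TNF receptor family, Tnfrsf11b was acetylated in Res alone, and Tnfrsf8 fell with the knockdown of Fabp7. Tnfrsf1a, the widely expressed receptor of TNF, had 103, 101 and 97.9 CPM of start-site H3K9ac (chr6:125348595-125351769) in Sen, 83.2, 91.8 and 89.7 in Res, 93.5, 103 and 89.5 in Res_Ctrl, and 89.6, 94.2 and 88.1 in Res_shFabp7. Res was below Sen in every library, by 0.19 (SE 0.065, adjusted p = 0.027), where the whole of chromosome 6 had a median of -0.31. With chromosome medians removed Tnfrsf1a was at 0.12 (adjusted p = 0.20), and the call was lost without Sen replicate 1, Sen replicate 2 or Res replicate 1. A small H3K9ac region within the gene had 19.2, 20.6 and 22.9 CPM in Sen and no peak in Res or Res_Ctrl. These levels are near those of the smallest peaks. The loss was found with a score of 100 or more and not with equal numbers of peaks per library. Tnfrsf1b, the second TNF receptor, had 64.7, 60.3 and 57.5 CPM of H3K9ac in Sen and 79.5, 73.4 and 73.4 in Res_Ctrl, a rise of 0.31 (adjusted p = 0.013) that was lost without Sen replicate 2 or 3 and with chromosome medians removed (0.17, adjusted p = 0.19).

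Tnfrsf11b codes for osteoprotegerin, a secreted decoy receptor that binds the ligand RANKL, and it had peaks in Res alone. In H3K27ac its region (chr15:54276725-54280210) had 55.2, 60.9 and 63.4 CPM in Res and no peak in any library of the other groups. In H3K9ac (chr15:54277137-54279398) it had 66.7, 72.7 and 68.0 CPM in Res, again with no peak elsewhere. The gain in Res over Sen appeared in both marks under all 5 other ways of calling presence. These levels were above the 5th percentile of peak levels in every library of the mark. The promoter table has no entry for Tnfrsf11b. Tnfrsf11a, the receptor RANK that binds the same ligand, had H3K9ac at its start in 3 of 3 libraries of Res_shFabp7 (14.6, 14.2 and 14.7 CPM) and in 0 or 1 of the other groups.

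Tnfrsf8, known as CD30 on activated lymphocytes, carried H3K27ac within the gene and not at its listed start. Its tested region (chr4:145271307-145275414) had 57.7, 84.5 and 87.2 CPM in Sen, 66.8, 99.6 and 81.7 in Res, 98.3, 112 and 115 in Res_Ctrl, and 69.4, 75.2 and 72.8 in Res_shFabp7. All knockdown libraries were below all Res_Ctrl libraries, with a fall of 0.56 (SE 0.10, adjusted p = 0.017), the only H3K27ac call among the members between these groups without the block. The size stayed between -0.52 and -0.63 when any 1 replicate was left out, but the call was lost without Res_Ctrl replicate 2 or 3 or Res_shFabp7 replicate 2 or 3 (adjusted p of 0.054 to 0.065), with chromosome medians removed (-0.41, adjusted p = 0.062) and with all 12 libraries in 1 fit. Res_Ctrl was also higher than Res, by 0.41 (adjusted p = 0.045), a call lost with chromosome medians removed and without Res replicate 1 or 3 or Res_Ctrl replicate 2 or 3. The adjoining region (chr4:145275473-145280898), singled out after its values had been seen, had 91.4, 96.7 and 96.8 CPM in Res_Ctrl and 39.7, 55.5 and 49.7 in Res_shFabp7. It fell by 0.95 (SE 0.13, adjusted p = 0.0053), which held in 15 of 15 alternatives. In H3K9ac Tnfrsf8 had 24.1, 41.3 and 33.2 CPM in Sen, no peak in Res, 36.7, 39.6 and 49.6 CPM in Res_Ctrl, and 26.8, 32.7 and 30.4 CPM in Res_shFabp7. The H3K9ac change on knockdown was -0.49 (SE 0.14) and did not pass (adjusted p = 0.055).

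Tnfrsf12a, the receptor of TWEAK, lies in a wide region with the starts of Cldn6, Hcfc1r1 and Thoc6 and cannot be told apart from them, at 401 to 480 CPM in H3K27ac and 499 to 685 CPM in H3K9ac. Its H3K9ac rose by 0.25 in Res against Sen (adjusted p = 0.0070), where chromosome 17 as a whole had a median of 0.29. It was lower in Res_Ctrl than in Res, at -0.21 (adjusted p = 0.022), where the median of the chromosome was -0.28. With chromosome medians removed the values were -0.04 and 0.06, and the second call was also lost without Res replicate 1 or Res_Ctrl replicate 2 or 3. Tnfrsf21, the death receptor DR6, ranged from 46.8 to 74.5 CPM at its start in H3K27ac and passed in none of the comparisons. Tnfrsf22, Tnfrsf23 and Tnfrsf26 are mouse decoy and related receptors in a cluster of similar genes on chromosome 7, where reads of copies may not be told apart. Tnfrsf26 had 72.5, 69.6 and 65.9 CPM of H3K9ac in Sen, 63.1, 66.5 and 57.8 in Res, 79.5, 85.2 and 81.8 in Res_Ctrl, and 88.1, 91.1 and 76.2 in Res_shFabp7. Res_Ctrl was above Sen and Res in every library, by 0.25 (adjusted p = 0.026) and 0.40 (adjusted p = 0.0055). The first was lost without Sen replicate 2 or 3 or Res_Ctrl replicate 2 or 3, and both were lost with chromosome medians removed. A further H3K9ac region of Tnfrsf26 (chr7:143623023-143627074), singled out after its values had been seen, had 59.3, 56.3 and 61.4 CPM in Sen and 34.6, 34.2 and 44.0 in Res. It fell by 0.66 (SE 0.11, adjusted p = 0.00053) in Res against Sen, with no overlap, and was not run under the alternatives. The called stretch was shorter in Res too, at 1528 to 1748 bases against 2766 to 3169 in Sen. The median change of chromosome 7 was -0.20 there. Tnfrsf10b, the death receptor of TRAIL, had weak H3K9ac of 30.3, 42.0 and 35.5 CPM in Sen and 18.7 and 22.3 CPM in 2 Res libraries. Tnfrsf9, the costimulatory receptor 4-1BB, had H3K27ac peaks at its start in 3 of 3 libraries of Res_shFabp7 only, at 11.5 to 18.3 CPM, and in 1 or 2 libraries of the other groups. These levels are near those of the smallest peaks.

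The genes that these receptors signal through were given by role from fixed lists. Of 28 genes for Janus kinases, STATs and their inhibitors, 23 had a tested H3K9ac region between Res and Sen, of which 8 rose and 6 fell, with a median of -0.01. Jak1, a kinase bound by interferon and gp130 receptors, rose by 1.27 (SE 0.12, adjusted p = 5.6e-06), and it fell by 0.39 (adjusted p = 0.029) in Res_shFabp7 against Res_Ctrl. Stat3, the main STAT below IL-6 and IL-22 receptors, rose in Res against Sen by 0.83 (adjusted p = 0.015) in H3K27ac and by 0.54 (adjusted p = 0.0039) in H3K9ac. In H3K9ac Stat3 was called higher in Res_Ctrl than in Sen too, and in H3K27ac it was called lower in Res_Ctrl than in Res. In Res_shFabp7 against Res_Ctrl, 0 of 25 passed in H3K27ac, and 0 rose and 2 fell of 23 in H3K9ac, the second being the feedback inhibitor Socs1 at -0.29 (adjusted p = 0.0081).

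Of 27 related receptors under other symbols, 10 had a tested H3K9ac region between Res and Sen, of which 2 rose and 4 fell. Il6st, the gp130 subunit that pairs with Il6ra, rose by 0.52 (adjusted p = 0.030) in H3K27ac and by 0.48 (adjusted p = 0.00019) in H3K9ac, and Sigirr, an inhibitor of IL-1 receptor signalling, fell by 0.47 (adjusted p = 0.022) and 0.70 (adjusted p = 3.5e-05). In Res_Ctrl, Sigirr was instead called higher than in Sen and than in Res, in both marks. Il6st was called lower in Res_Ctrl than in Res in both marks, and was not called between Res_Ctrl and Sen. Of 37 adaptors, kinases and inhibitors below the TNF and IL-1 receptors, 34 were tested in H3K9ac between Res and Sen, and 8 rose and 10 fell. Between Res_shFabp7 and Res_Ctrl, 33 were tested, and 1 rose and 2 fell. Those that fell were Mlkl, the executor of necroptosis, at -0.36 (adjusted p = 0.0059), and Tnfaip3, the NF-kB inhibitor A20, at -0.30 (adjusted p = 0.0018). Mlkl fell in H3K27ac as well, by 0.45 (adjusted p = 0.036). Some of these shares lie above and some below the background of all genes given above, and nothing particular to the lists is read from them. Unlike those of the members, the changes of the listed genes are given without the alternatives and without the medians of their chromosomes.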

How the data were processed

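Peak lists of 24 immunoprecipitated libraries (2 marks, 4 groups, 3 replicates each) were analysed, and the 4 inputs were not used. Per the labels, fixation was in 1% formaldehyde (10 minutes) and sequencing gave 50-base single reads, 53 to 158 M (M, 1000000) for a sample. Per the submitters' processing notes, Bowtie 1.1.2, MACS 1.4.2 and the build mm10 were used. The tag count of each peak, deposited by the authors, is a whole number that is not scaled to the library. The authors' deposited score is minus 10 times the log10 of the peak's p-value (50 or more), and their deposited fold ratio was not used. Peaks were called by the authors in each library alone, so a region without a peak has no count, and tags per region grow with the length called.

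Overlapping peaks (1 base or more) of the 12 lists of a mark were merged, which gave 32703 H3K27ac and 20543 H3K9ac regions, and the counts of a library's peaks in a region were summed. Regions with a peak in all 6 libraries of a comparison were tested with edgeR 4.0.16 (R 4.3.3) by the quasi-likelihood test with TMM scaling, without a replicate block, and p-values were adjusted by Benjamini-Hochberg over all regions tested at 0.05. The test was checked on simulated counts. Groups came from the labels. A gene took the regions within 1 kb of its annotated ends, and was tested at the region with most scaled tags on average. Coordinates are 1-based on mm10. Whether a region lies over an exon or intron is not given, because the gene table holds outer ends only. In H3K27ac, the deviations of samples with the same replicate number correlated at 0.419, 0.187 and 0.234 for Res_shFabp7 and Res_Ctrl. The values were 0.382, 0.102 and 0.105 for Res_Ctrl and Res. They were 0.333, 0.093 and 0.186 for Res_Ctrl and Sen, and 0.274, 0.072 and 0.135 for Res and Sen. Replicate 1 gave the highest value each time. Res_Ctrl replicate 2 correlated more with Res replicate 3 (0.167) than with Res replicate 2. No label pairs the samples, and these values do not settle whether the numbers do, so blocked values are given beside the unblocked ones.

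Members called or on and off in Res against Sen or Res_shFabp7 against Res_Ctrl were given with library values, up to 12 and 10. Others were given by their change or, for some on and off regions, by name only. The members, lists and tests were chosen with earlier results of these data known. Alternatives were DESeq2 1.42.0, RLE scaling, the replicate block, all 12 libraries in 1 fit, a mean of 100 tags or more, counts per called base, removal of chromosome or 5 Mb window medians, a score of 100 or more, merging at 200 bases, windows of 0 and 5 kb, equal numbers of peaks, and leaving out each replicate.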

Additional observations from a re-analysis of the deposited data

How the results depend on the processing

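Of 41 calls of a member in a comparison and mark, 8 held under every alternative that gave a value for them: Il15ra and Il17ra in H3K9ac for Res against Sen, Il17ra in both marks for Res_Ctrl against Res, Il22ra1 in H3K9ac for Res against Sen and Res_Ctrl against Res, and Il18rap and Il6ra in H3K9ac for Res_Ctrl against Sen. The other 33 were lost or reversed under at least 1. Of those 8, all 12 libraries in 1 fit gave no value for Il17ra in H3K27ac and Il18rap, and a score of 100 or more gave none for Il15ra, Il18rap and Il17ra in Res_Ctrl against Res. Counts per called base lost 14 and reversed 5, chromosome medians lost 16 and reversed 3, and 5 Mb window medians lost 15 and reversed 4. Per called base the reversed values were, for Res against Sen, -0.014 at Ifngr2 in H3K27ac and 0.059 at Ifngr1 in H3K9ac, and for Res_Ctrl against Res in H3K9ac -0.072 at Ifngr1, 0.199 at Ifngr2 and -0.003 at Il4ra. With chromosome and with 5 Mb medians removed, Tnfrsf12a gave -0.037 and -0.003 for Res against Sen and 0.061 and 0.04 for Res_Ctrl against Res, and Tnfrsf1a gave 0.115 and 0.11; Il9r gave -0.093 with 5 Mb medians. The number of members called in Res against Sen was 1 per called base in H3K27ac, and in H3K9ac 7 per called base, 6 with chromosome and 5 with 5 Mb medians. For Res_shFabp7 against Res_Ctrl in H3K27ac it was 2 with the replicate block, 2 per called base, 2 by DESeq2, 0 with chromosome medians and 0 with all 12 libraries in 1 fit, and in H3K9ac 3 per called base, 0 with 5 Mb medians, 2 with all 12 libraries and 2 by DESeq2. For Res_Ctrl against Sen in H3K27ac it was 5 with the replicate block, 5 by DESeq2, 1 with chromosome, 1 with 5 Mb medians and 0 with a score of 100 or more. For Res_Ctrl against Res it was 9 with the replicate block in H3K27ac, and in H3K9ac 5 with chromosome medians, 5 with 5 Mb medians and 5 with a score of 100 or more. In the comparisons with Sen, the block lost Il9r in H3K9ac in Res against Sen (adjusted p = 0.057). It added Il1r1 and Tnfrsf8 in H3K27ac in Res_Ctrl against Sen. Leaving out 1 replicate gave 2 to 5 calls (5 without Sen replicate 1) and 9 to 12 for Res against Sen in H3K27ac and H3K9ac, 0 to 1 and 1 to 2 for Res_shFabp7 against Res_Ctrl, 0 to 4 and 4 to 7 for Res_Ctrl against Sen, and 5 to 8 and 5 to 8 for Res_Ctrl against Res. Members with a region on in 1 group and off in the other numbered, with a score of 100 or more and with equal numbers of peaks, 1 and 4 in Res_Ctrl against Sen and 5 and 6 in Res_Ctrl against Res in H3K27ac, and 1 and 6 in Res_Ctrl against Res in H3K9ac. They numbered 2 with a score of 100 or more in Res_Ctrl against Sen in H3K9ac, 1 with equal numbers of peaks in Res_shFabp7 against Res_Ctrl in H3K27ac, and 3 with windows of 5 kb in that comparison in H3K9ac. With a score of 100 or more, 16 members had H3K9ac in 3 of 3 Res_Ctrl libraries. The cause of these shifts was not tested, except that stricter scores leave fewer regions. Presence depends on depth, which the lists give only as tags in peaks, and with 3 libraries against 3 an absent peak has no p-value.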

Other observations

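The ligands of these receptors were read in the same libraries. Of 66 ligand genes, 19 had an H3K27ac peak and 14 an H3K9ac peak in at least 1 library. In H3K9ac, 7 of 11 tested ligands rose in Res against Sen and 1 fell, with a median log2 change of 0.23, where 27.7% of all tested genes rose and 25.7% fell. In H3K27ac 2 of 12 rose and 1 fell, with a median of 0.006, where 15.1% of all genes rose and 11.9% fell. In Res_shFabp7 against Res_Ctrl, 0 of 12 rose and 3 fell in H3K9ac, with a median of -0.12, where 6.14% of all genes passed. For H3K27ac, 0 of 14 rose and 2 fell, with a median of -0.221, where 2.32% of all genes passed. At Csf1, the growth factor of macrophages, H3K9ac was higher by 0.86 (SE 0.067, adjusted p = 1.4e-06, edgeR) in Res than in Sen and lower in Res_shFabp7 than in Res_Ctrl, at -0.50 (SE 0.066, adjusted p = 0.00089). Il34, the other ligand of the Csf1 receptor, rose by 0.71 (adjusted p = 2e-05) in Res and fell by 0.36 (adjusted p = 0.0022) in Res_shFabp7. Their receptor gene Csf1r had a peak in 0 libraries of either mark. Il15, whose receptor chain Il15ra rose in Res in H3K9ac, rose by 0.71 (adjusted p = 0.0086) in H3K27ac in Res against Sen and fell by 0.67 (adjusted p = 0.017) in Res_shFabp7 against Res_Ctrl. Between Res_Ctrl and Sen, Il34 was called higher in H3K9ac, whereas Csf1 in H3K9ac and Il15 in H3K27ac were not called. Csf1 was called lower in Res_Ctrl than in Res in H3K9ac. Il33, the ligand of Il1rl1, fell by 1.90 (SE 0.22, adjusted p = 0.00044) in H3K27ac in Res against Sen, and was higher in Res_Ctrl than in Res by 2.02 (adjusted p = 1.9e-05), where Il1rl1 itself was lower in Res_Ctrl. These lists were written with earlier results of these data known, and Res and Res_Ctrl libraries enter more than 1 of the comparisons. The changes of the ligands are given without the alternatives and without the medians of their chromosomes.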
